A study of Mus musculus with 474 samples.

Results

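The nuclear-encoded subunits of the mitochondrial respiratory chain were followed in single daughters of mouse haematopoietic stem cells (HSCs), the blood stem cells of the bone marrow. Members were protein-coding genes whose symbols begin with the names of the subunit families (Ndufa, Ndufb, Ndufc, Ndufs, Ndufv, Uqcr, Cox4 to Cox8, Atp5) or are Sdha, Sdhb, Sdhc, Sdhd or Cyc1, with a count in at least 20% of cells. Of 100 genes with such symbols among 55450 in the tables, 13 were not protein-coding and 87 were, and 79 of the 87 met the detection limit. They comprise 36 genes of complex I, 4 of complex II, 9 of complex III, 13 of complex IV and 17 of complex V. The lowest member inside the limit was Cox7a1, with a count in 22.8% of cells, and the highest gene outside it was Cox8b, at 3.16%.

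All cells came from wild type male C57BL/6JRj mice of 12 to 19 weeks. Each HSC was followed by time-lapse imaging through its first division in vitro. A micromanipulator then moved its daughters into separate wells for Smart-seq2, which reads full-length transcripts. The deposited metadata name 51.1% of cells as "high" and 48.9% as "low" daughters, meaning that a cell received more or fewer lysosomes than its sister; how this label was set is not stated. The cells came from 9 culture experiments of 28 to 77 cells, and both daughters were sequenced in 11 to 38 divisions per experiment. Sequencing run 5 held 4 experiments (11 to 20 divisions each) and run 4 held 5 (12 to 38 divisions each). How many animals an experiment drew on is not stated. No treatment or second genotype is labelled, so the comparisons are high with low daughters, sisters with unrelated cells, and run 5 with run 4.

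Electrons from NADH enter the chain at complex I (NADH dehydrogenase), and electrons from succinate enter at complex II (succinate dehydrogenase). They pass through complex III (cytochrome bc1) to complex IV (cytochrome c oxidase), which reduces oxygen, and ATP synthase, complex V, uses the proton gradient that complexes I, III and IV build. All of these complexes but complex II also hold subunits encoded by mitochondrial DNA. HSCs are known for a metabolism that leans on glycolysis while they are quiescent and for greater mitochondrial activity once they enter division.

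A cell had a median of 846198 counts on genes (76735 to 2444858). The members took a median of 1.05% of a cell's counts (0.326% to 2.39%). The cells carried HSC transcripts, the 8 HSC markers having a median detection of 99.7% of cells, with Slamf1 lowest at 28.7%. Median detection was 56.2% for 6 megakaryocyte markers, 16.2% for 6 macrophage, 5.38% for 6 erythroid, 3.69% for 6 myeloid, 2.74% for 6 stromal and endothelial and 1.16% for 6 lymphoid markers. Single markers of these lists were common, Lyz2 in 99.6% of cells, Pecam1 in 93.7%, Prtn3 in 74.1%, Hbb-bt in 63.1%, Cd68 in 58.4% and Csf3r in 50.2%. Mpo, Ctsg, C1qa, Rag1 and Cd3e were listed at 0, and such zeros are not taken to show that a transcript was missing. Of the members, 73 had a count in at least 95% of cells.

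Levels are given in CPM (counts summed per experiment and scaled to a total of 1000000 counts on genes) and, between genes, in CPM per kb of the principal annotated transcript. Levels per length spanned more than 2 orders of magnitude, and by the principal transcript the catalytic β subunit of ATP synthase stood highest. Atp5b (ENSMUSG00000025393, chromosome 10, 128083273 to 128090391, + strand, GRCm38) ranged from 901 to 1730 CPM over the 9 experiments with a median of 1283 CPM, and its mean per length was 660 ± 135.5 CPM per kb (SD, n = 9 experiments). Summed over their members, the complexes reached 3082 ± 296.9 CPM for complex I, 883 ± 124.96 CPM for complex II, 1232 ± 135.7 CPM for complex III, 1414 ± 106.2 CPM for complex IV and 3820 ± 505 CPM for complex V (SD, n = 9). Ranks per length depended on the length used: over the union of annotated exons, chosen after seeing the data, Cox8a was highest at 331.7 CPM per kb, before Atp5b at 298.7. By that length Ndufa8 led complex I, Ndufb7 stood at 28.6 CPM per kb, and Uqcrc1 (43.5) and Atp5l (1.51) were the lowest of complexes III and V. The levels per length that follow are by the principal transcript. Atp5b alone exceeded the sum of the 4 complex II members in level by CPM. The median member stood at 81.6 CPM per kb in complex I, 128.1 in complex II, 117.1 in complex III, 148.1 in complex IV and 167.9 in complex V.

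**Figure D1:**
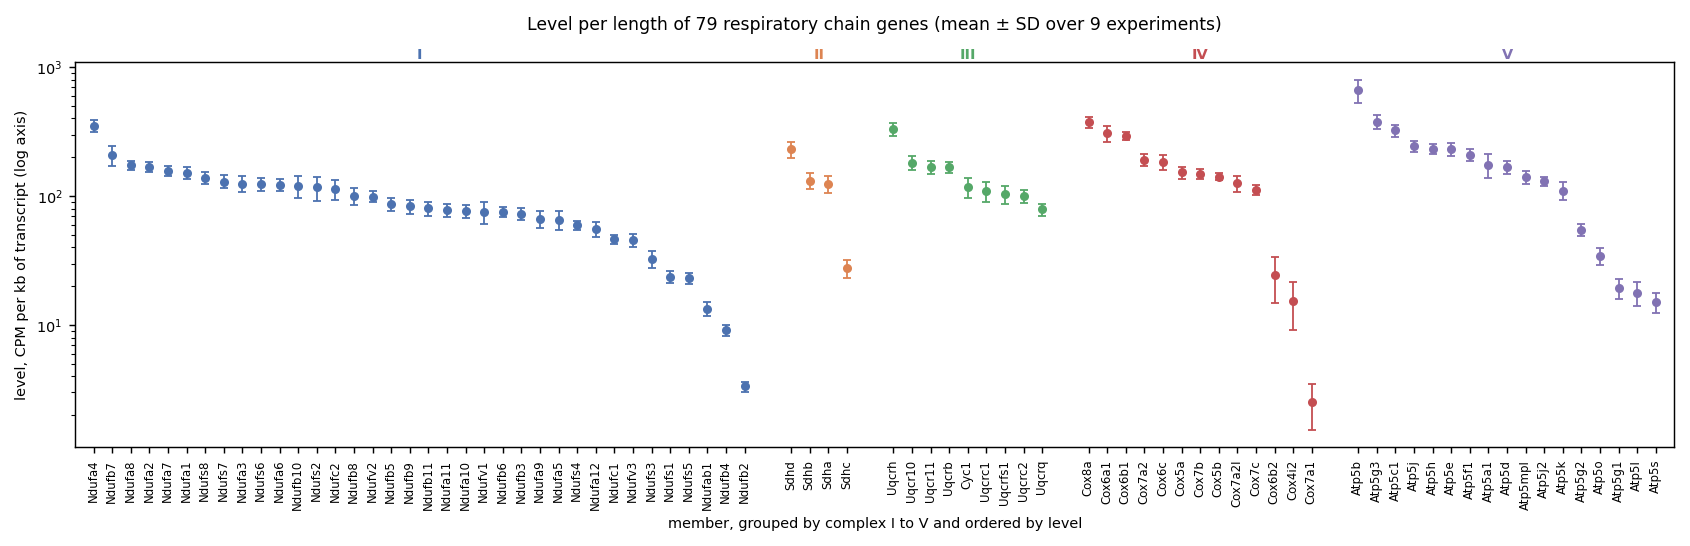
Level per length (CPM per kb of the principal transcript, log axis) of the 79 members, by complex; points are means and bars SDs over 9 experiments. By this length Atp5b is highest at 660 CPM per kb, and the lowest members of complexes I and IV are Ndufb2 (3.35) and Cox7a1 (2.52).

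Within complex I, Ndufa4 was highest at 352.5 ± 37.2 CPM per kb, followed by the accessory subunits Ndufb7 at 207.2 ± 36.6 and Ndufa8 at 172.7 ± 14.03 CPM per kb (SD, n = 9). Ndufa4 carries a complex I name, but its protein was later placed in complex IV. The flavoprotein Ndufv1, which holds the NADH site, reached 75.8 ± 14.96 CPM per kb and Ndufs1, the largest iron-sulphur subunit, 23.7 ± 2.47. Ndufb2, whose principal transcript is annotated at 4371 bases, was lowest at 3.35 ± 0.30 CPM per kb. By CPM it stood at 14.6, and Ndufb4 was the lowest of complex I at 8.83. In complex II the membrane anchor Sdhd stood at 230 ± 32.85 CPM per kb, the iron-sulphur subunit Sdhb at 131.7 ± 18.95, the flavoprotein Sdha at 124.5 ± 19.6 and the other anchor, Sdhc, at 27.6 ± 4.44. Sdhb and Sdha differed by less than their spread between experiments.

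In complex III the hinge protein gene Uqcrh led with 331.99 ± 39.9 CPM per kb, before the small subunits Uqcr10 (180.8 ± 22.3) and Uqcr11 (167.6 ± 18.8). Cyc1, which encodes cytochrome c1, stood at 117.1 ± 20.8 CPM per kb and the Rieske iron-sulphur protein gene Uqcrfs1 at 103.6 ± 16.3. Uqcrq was lowest at 78.9 ± 8.51. In complex V the γ subunit gene Atp5c1 (323.6 ± 35.2 CPM per kb) followed Atp5b and Atp5g3, and Atp5s, coupling factor B, was lowest at 15 ± 2.58.

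Several complex IV subunits exist as a widespread and a tissue-restricted isoform, and the widespread one was the higher in each family that could be compared. Cox6a1 and Cox8a, the widespread forms, reached 307.5 ± 42.98 and 373.3 ± 35.1 CPM per kb. Their muscle counterpart Cox8b had a count in 3.16% of cells, and Cox6a2 was listed at 0. Cox6b1 stood at 291.7 ± 19.7 CPM per kb, and Cox6b2, known from testis, at 24.4 ± 9.52. Cox7a2 stood at 191.8 ± 19.9 CPM per kb, the related supercomplex factor Cox7a2l at 125.5 ± 18.3 and the heart and muscle isoform Cox7a1 at 2.52 ± 0.97. Cox4i2, the isoform known from lung and low oxygen, reached 15.4 ± 6.31 CPM per kb. Its widespread partner Cox4i1 was listed at 0 in every cell, as were Ndufa13, Cox6a2 and Cox8c; by counting error alone this allows a count in up to 0.633% of cells. Cox4i1 and Ndufa13 encode subunits that cells generally use, so a zero listed here does not show that the transcript was missing, and no comparison of Cox4i1 with Cox4i2 was made. Ndufa4l2, the relative of Ndufa4, had a count in 0.211% of cells and Cox7b2 in 2.11%.

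The SD of log2 CPM between experiments had a median of 0.167 over the members and 0.262 over the 11745 genes with a count in at least 20% of cells. The members' median level was 96.2 CPM, against 39.8 CPM for those 11745 genes.

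Atp5g1, Atp5g2 and Atp5g3 encode the same mature c subunit, the membrane ring of ATP synthase that turns with the proton flow, behind different leader peptides. Over the stretch of coding sequence that spells the mature subunit, Atp5g1 and Atp5g2 were 85.1% identical with a longest identical run of 21 bases. Atp5g1 and Atp5g3 were 79.8% identical (longest run 11), and Atp5g2 and Atp5g3 78.5% (longest run 8). Atp5g3 was the highest of the family at 273.4 ± 33.97 CPM, Atp5g1 stood at 90.6 ± 16.2 CPM and Atp5g2 at 40.2 ± 4.37 CPM (SD, n = 9). Per length the order was Atp5g3 (378.2 CPM per kb), Atp5g2 (55) and Atp5g1 (19.2), the principal transcript of Atp5g1 being annotated at 4715 bases. The 3 promoters, from 250 bases before to 50 after the start (RefSeq, GRCm38.p6, all on the minus strand and printed 5′ to 3′ on it), are shown because the levels of 2 of these genes moved together between cells and the third did less so, as given further on. Capitals mark the letters that nuclear respiratory factor 1 (NRF1) is known to bind (GCGCA, any base, then GCGC), found on either strand.
Atp5g1, chr11:96075582-96075881, no match: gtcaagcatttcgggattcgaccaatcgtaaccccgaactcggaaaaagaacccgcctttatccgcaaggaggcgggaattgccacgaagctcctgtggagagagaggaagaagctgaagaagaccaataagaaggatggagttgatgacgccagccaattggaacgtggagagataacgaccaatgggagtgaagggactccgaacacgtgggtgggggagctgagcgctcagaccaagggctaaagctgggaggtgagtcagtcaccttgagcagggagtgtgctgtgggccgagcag
Atp5g2, chr15:102670998-102671297, match starting 42 bases before the start: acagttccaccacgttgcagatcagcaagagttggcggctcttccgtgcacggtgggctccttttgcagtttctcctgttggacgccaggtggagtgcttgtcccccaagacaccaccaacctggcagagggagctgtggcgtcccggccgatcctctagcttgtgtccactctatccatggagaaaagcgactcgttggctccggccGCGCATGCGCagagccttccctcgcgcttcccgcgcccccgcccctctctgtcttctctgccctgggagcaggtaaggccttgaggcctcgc
Atp5g3, chr2:73911277-73911576, match starting 12 bases after the start: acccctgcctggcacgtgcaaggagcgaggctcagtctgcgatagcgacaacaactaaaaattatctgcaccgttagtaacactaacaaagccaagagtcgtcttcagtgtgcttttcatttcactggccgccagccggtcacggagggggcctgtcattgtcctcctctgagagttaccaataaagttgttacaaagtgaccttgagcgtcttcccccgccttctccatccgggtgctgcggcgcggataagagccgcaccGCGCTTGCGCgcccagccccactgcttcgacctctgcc

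Of the 79 members, 64 had a promoter in the RefSeq table, with 69 windows in all. The NRF1 letters stood in 26.1% of the members' windows, against 10.4% of windows of genes with a count in at least 20% of cells and 4.60% of all 32851 windows. The ETS letters CCGGAAG stood in 23.2% of the members' windows, against 18.2% and 8.86%, and the YY1 letters AAGATGGCG in 10.1%, against 3.15% and 1.40% (both strands in each case; none of these motifs contains another). The 17 members with NRF1 letters had a median intraclass correlation between sisters of 0.114, against 0.139 for the 47 without them. A match describes the letters and is no evidence of binding.

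The first comparison asks whether daughters that received more lysosomes differ from their sisters in respiratory chain transcripts. No member passed the test. Atp5b had 836 to 1730 CPM in high daughters (median 1289) and 842 to 1762 CPM in low daughters (median 1262), and Atp5g1 had 77.1 to 124.5 CPM in high daughters (median 87.2) and 66.2 to 120 CPM in low daughters (median 82.8). The groups overlapped almost entirely in both genes. The log2 difference, high minus low, was 0.015 ± 0.030 for Atp5b and -0.009 ± 0.070 for Atp5g1 (SE, edgeR). By edgeR's quasi-likelihood test on sums per experiment and label, with the experiment as block and Benjamini-Hochberg adjustment, 0 of 79 members passed an adjusted p of 0.05, where 0 of 15854 genes did (0%). At an unadjusted p under 0.05 the count was 0 of 79 members, against 4.15% of all genes. By limma on differences between sisters, which takes divisions and not cultures as replicates, it was 4, against 5.76% of all genes. In that fit 52 of 79 members stood above 0. In run 4 alone (edgeR) the count was 2, against 4.10% of all genes. DESeq2 called 5 genes and limma voom 0, no member among them.

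The fit bounded the differences tightly. The 95% interval of the high to low ratio lay within 1.5-fold for 76 of 79 members, where 51.6% of all genes met this, and the median SE was 0.069 for members and 0.19 for all genes on the log2 scale. The exceptions were Ndufb4, Cox4i2 and Cox7a1, at means of 8.83, 11.3 and 0.989 CPM, and Atp5l, at 9.71 CPM, lay within. Signs were near evenly split: 43 of 79 members stood above 0 (37 to 49 with 1 experiment left out), against 49.8% of all genes, with a median log2 difference of 0.009 for members and -0.0008 for all genes.

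The smallest unadjusted p belonged to Atp5d, the δ subunit of the ATP synthase stalk. Atp5d had 212.6 to 287.6 CPM in high daughters (median 241.04) and 197.9 to 286.9 CPM in low daughters (median 230.9). The difference was 0.09 ± 0.05 on the log2 scale (SE), with high daughters above low daughters in 8 of 9 experiments. Ndufa12 and Ndufb7, accessory subunits of complex I, were likewise higher in 8 of 9 experiments (0.12 ± 0.07 and 0.07 ± 0.06). Ndufb10 (0.10 ± 0.06) and Cyc1 (0.11 ± 0.08) were higher in 6 and 5 of 9. Ndufa6, another accessory subunit, stood at -0.12 ± 0.07 and was higher in high daughters in 2 of 9 experiments. All adjusted p-values were 0.999 (edgeR). How many of all genes had such splits over experiments was not counted.

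Cox4i2 (ENSMUSG00000009876, chromosome 2, 152754173 to 152765037, + strand) had the widest gap. It had 3.04 to 19.8 CPM in high daughters (median 10.3) and 6.34 to 22.1 CPM in low daughters (median 10.7). The ranges overlapped, and high daughters were above low daughters in 1 of 9 experiments, a split not counted over all genes. The log2 difference was -0.40 ± 0.23 (SE, 95% interval -0.89 to 0.09, edgeR adjusted p = 0.999). In divisions with both daughters sequenced, 57.1% of high daughters and 63.1% of low daughters had a Cox4i2 count.

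Of complex II, the log2 difference was -0.02 ± 0.06 for Sdha, 0.07 ± 0.07 for Sdhb, -0.04 ± 0.07 for Sdhc and -0.08 ± 0.07 for Sdhd (SE). Uqcrfs1 stood at 0.02 ± 0.06, Ndufs1 at -0.08 ± 0.08 and Ndufv1 at 0.05 ± 0.07. None of these 7 passed the test, and each interval lay within 1.5-fold.

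**Figure D2:**
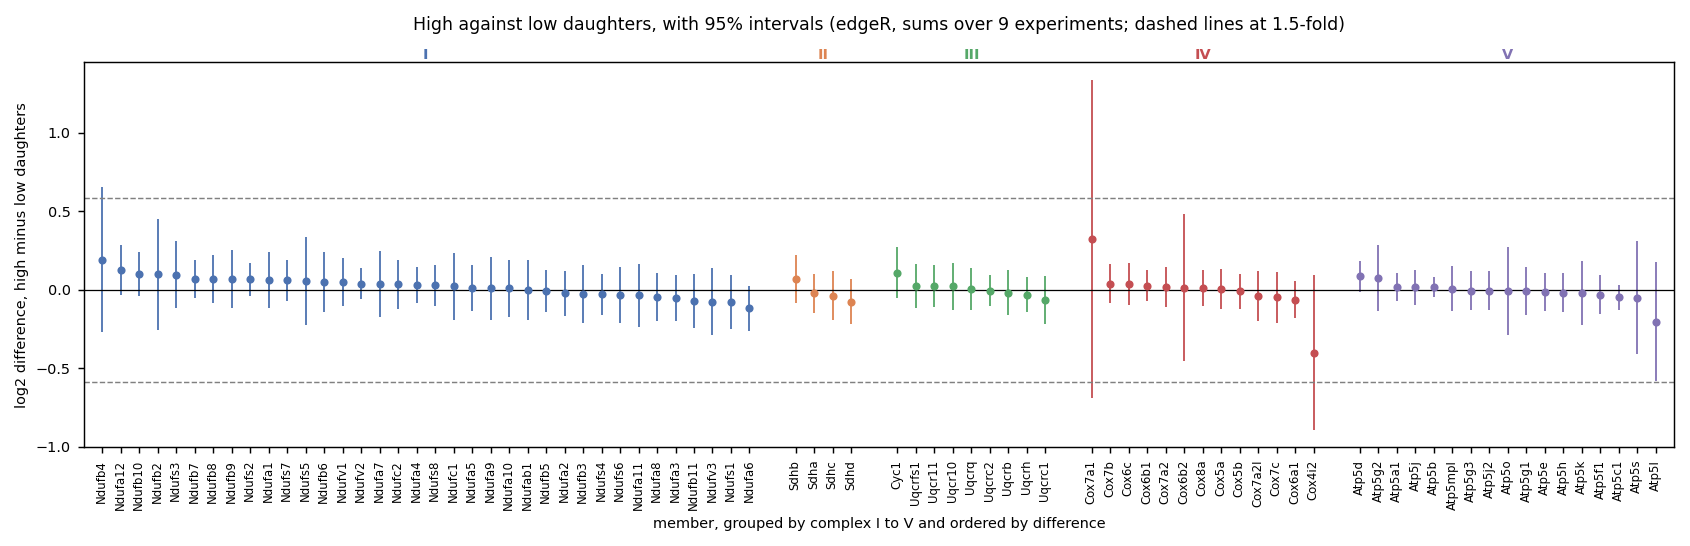
Log2 difference, high minus low daughters, of the 79 members with 95% intervals (edgeR on sums over 9 experiments), by complex; dashed lines mark 1.5-fold. All but 3 intervals (Ndufb4, Cox4i2 and Cox7a1) lie between the dashed lines.

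Averaged over the members as log2(CPM + 1), the score was 6.27 ± 0.14 in high and 6.25 ± 0.16 in low daughters, a difference of 0.022 ± 0.058 (SD, n = 9 experiments). High daughters had the higher score in 6 of 9 experiments, and the extremes were -0.091 (experiment 69) and 0.087 (experiment 74). Within sequencing runs, 25 of 79 members stood above 0 in run 5 alone (48.8% of all genes) and 59 of 79 in run 4 alone (50.3% of all genes). A test of the difference between runs (interaction in edgeR) called 0 of 79 members and 0% of all genes, and 1 member, Ndufb9, at an unadjusted p under 0.05, against 4.24% of all genes.

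The second comparison asks how alike sisters are. The intraclass correlation is the share of the variance of log2(CPM + 1), centred on experiment and plate, that lies between divisions; at 0 a pair of sisters is no closer than a pair of unrelated cells. Sisters resembled each other in a part of the respiratory chain transcripts, and the medians were highest in cytochrome c oxidase and ATP synthase. The difference between complexes was not tested. An adjusted p under 0.05 (F test over divisions, Benjamini-Hochberg over all genes) was met by 34 of 79 members, where 26.4% of all 11745 genes met it, and the median intraclass correlation was 0.139 for members and 0.086 for all genes. The p-values rest on divisions from 9 cultures, not on cultures. By complex, 8 of 36 members of complex I passed (median 0.105), 1 of 4 of complex II (0.072), 3 of 9 of complex III (0.141), 10 of 13 of complex IV (0.254) and 12 of 17 of complex V (0.233).

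Atp5g1 led. Its level differed between sisters by a median of 1.36-fold and between unrelated cells of 1 plate and experiment by 1.55-fold. The division averages ran from 41.02 CPM at the 10th to 138.01 CPM at the 90th percentile. Its intraclass correlation was 0.480 (95% interval 0.365 to 0.580; adjusted p = 1.11e-11), positive in 9 of 9 experiments. Atp5g3 stood at 0.370 (0.244 to 0.484; 6.80e-07), and Atp5g2 at 0.162 (0.024 to 0.295; 0.043). Atp5g2 lost its call without any one of experiments 60, 68, 69, 72, 74 and 77 (0.136 to 0.159). Across the cells of these divisions, Atp5g1 and Atp5g3 had a Pearson r of 0.54, Atp5g1 and Atp5g2 of 0.11, and Atp5g2 and Atp5g3 of 0.10. Of the pairs with Atp5g1, the one with Atp5g3 had the higher r and the lower identity in the coding stretch of the mature subunit. Other parts of the transcripts were not compared, and reads shared between near-identical copies were not examined.

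Next came Cox7a2 at 0.401 (0.278 to 0.512), Cox7b at 0.357 (0.230 to 0.473), both accessory subunits of cytochrome c oxidase, and Atp5f1, the b subunit of the ATP synthase stalk, at 0.355 (0.227 to 0.471). Uqcrq, a small subunit of complex III, stood at 0.332 (0.203 to 0.451), Cox4i2 at 0.331 (0.201 to 0.450) and Ndufb5, of the membrane arm of complex I, at 0.323 (0.193 to 0.442). Cox7a2 levels differed by a median of 1.37-fold between sisters and 1.496-fold between unrelated cells, and Atp5g3 levels by 1.22-fold and 1.37-fold. Of the members, 6 were positive in 9 of 9 experiments, Atp5g1, Cox7a2, Cox7b, Uqcrq, Uqcr10 and Ndufa5, where 5.70% of all genes were.

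At the other end, the intraclass correlation was -0.127 (-0.261 to 0.012) for Ndufb4, -0.061 (-0.198 to 0.079) for Uqcrfs1, -0.057 (-0.194 to 0.083) for Ndufs3, a core subunit of complex I, and -0.016 (-0.155 to 0.123) for Cox7a1. Uqcrfs1 is no low gene, at 141.2 ± 22.2 CPM, and sisters differed in it by 1.43-fold, unrelated cells by 1.46-fold. Of complex II, Sdhd passed (0.220, 0.084 to 0.349), and Sdha (0.090), Sdhc (0.053) and Sdhb (0.004) did not. Cyc1 (0.141, adjusted p = 0.076) and Ndufv1 (0.139, 0.078) missed the threshold and passed without experiment 68 (0.214 and 0.212). Ndufs1 passed (0.224, 0.005), and without experiment 75 it did not (0.146, adjusted p = 0.098). Among the isoform families, Ndufa4 (0.259), Cox6a1 (0.198), Cox6b1 (0.262), Cox6b2 (0.252) and Cox8a (0.267) passed, and Cox7a2l (0.034) did not. Cox6a1 lost its call without experiment 60 (0.143) or 77 (0.169).

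**Figure D3:**
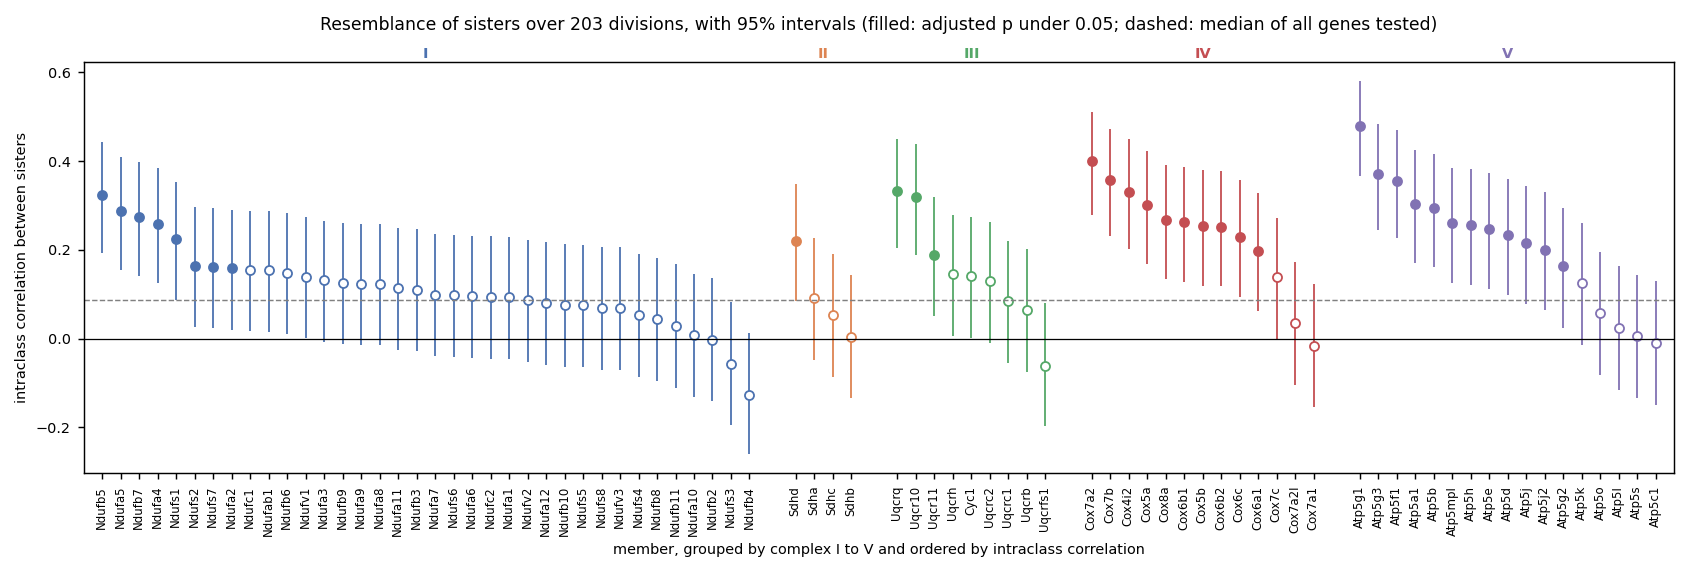
Intraclass correlation between sisters of the 79 members over all divisions with both daughters, with 95% intervals, by complex; filled points have an adjusted p under 0.05 and the dashed line is the median of 11745 genes (0.086). Most members of complexes IV and V are filled and most of complex I are open.

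Level moved with this count. The 34 members that passed had a median of 126.9 CPM and the other 45 a median of 72.3 CPM. Below 50 CPM 3 of 15 members passed (19.5% of all genes in that range), from 50 to 100 CPM 10 of 28 (27.3%), from 100 to 200 CPM 13 of 26 (33.4%) and from 200 CPM 8 of 10 (61.98%). From 100 CPM upwards, 4 of 10 members of complex I passed, 7 of 8 of complex IV and 8 of 9 of complex V; below it, 4 of 26, 3 of 5 and 4 of 8. The part of level in the spread between complexes was not tested.

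Cell cycle genes moved with the score of the members (r = 0.50 with 54 G2/M genes and 0.38 with 44 G1/S genes over cells). With both cell cycle scores (linear and squared terms) regressed out, 23 of 79 members passed (14% of all genes). Atp5g1 then stood at 0.351, Cox7b at 0.360 and Cox4i2 at 0.333, and Cox7a2 at 0.195, with adjusted p-values from 5.82e-06 to 0.027. Within runs, 6 of 79 members passed in run 5 alone (10.2% of all genes) and 35 of 79 in run 4 alone (21.2%), run 5 holding 67 divisions and run 4 the rest. Both daughters were on the same plate in every division and in neighbouring wells in all but 2. Unrelated cells in neighbouring wells of the same plate and experiment had a correlation of 0.040 in the score of the members, against 0.443 for sisters. The median over members was 0.010 for these unrelated pairs and 0.112 for sisters by the same measure.

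The score of the members had an intraclass correlation of 0.465 (0.349 to 0.568). Scores of the 71 mitochondrial ribosomal protein genes stood at 0.525 (0.417 to 0.619) and of 8 mitochondrially encoded subunit genes at 0.222 (0.086 to 0.350). By single genes the order was the reverse, with medians of 0.103 and 0.208. A score averages its genes, so its value depends on their number, and lists of different size are not compared by it. Of other genes of the pathway, where 26.4% of all genes passed, 5 of 42 assembly factors passed, 6 of 15 genes of electron carriers and quinone synthesis, 4 of 16 of the TCA cycle, 6 of 8 mitochondrially encoded genes and 4 of 16 of protein import. Highest by list were Cmc2 (0.405), a cytochrome c oxidase assembly factor, Cycs (0.391), cytochrome c itself, Mdh2 (0.526), malate dehydrogenase, mt-Cytb (0.341) and Tomm40 (0.275), the pore of the outer membrane. With the cell cycle regressed out, Cmc2 stood at 0.095 (adjusted p = 0.253) and Mdh2 at 0.459. Of 14 transcription regulators of mitochondrial genes, 1 passed, Myc (0.314), and Nrf1 (0.129, adjusted p = 0.100) did not.

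Members of low level had a count in a part of the daughters. Cox4i2 had a count in 59.5% of cells (54.9% to 63.9%, exact binomial interval, counting error only), and in 34.4% to 66.7% of cells by experiment. Both daughters had a Cox4i2 count in 86 divisions, 1 daughter in 72 and neither in 45. The low daughter had a count in 74.1% of divisions whose high daughter had one and in 48.3% of the others. Cox6b2, at 78.9% of cells, was found in both daughters in 62.6% of divisions, in 1 in 30.5% and in neither in 6.90%, and the low daughter had a count in 77.9% and 65% of divisions with and without one in the high daughter. For Cox7a1, at 22.8% of cells, the low daughter had a count in 17.8% of divisions whose high daughter had one and in 23.4% of the others. For Atp5l, at 73.4% of cells, these shares were 71.03% and 68.97%, and for Atp5s, at 81.2% of cells, 82.1% and 80.5%. The gap between such shares was wider in Cox4i2 and Cox6b2 than in Atp5l and Atp5s, and it was not tested. These shares were pooled over all divisions, without centring on experiment or matching of depth. Thinned to 200000 counts per cell (13 shallower cells left out), 48.8% of cells had a Cox4i2 count, 65.9% a Cox6b2 count and 11.9% a Cox7a1 count, the last below the 20% limit.

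**Figure D4:**
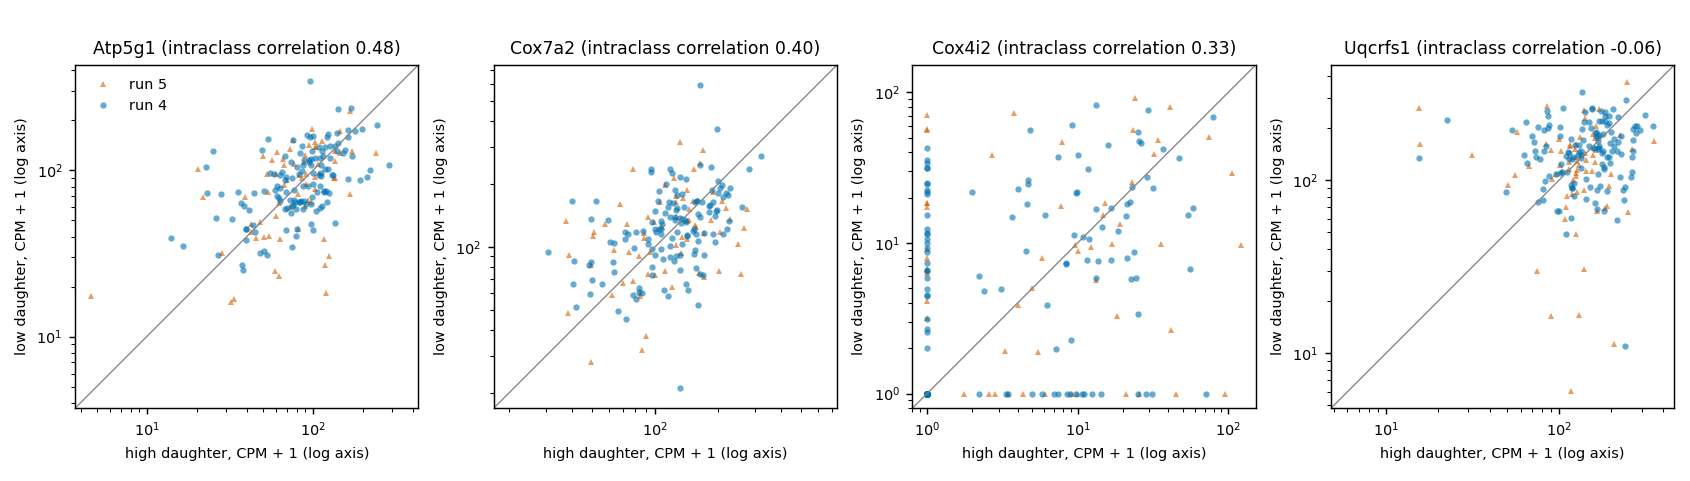
CPM + 1 (log axes) of the high daughter (x) and the low daughter (y) of each division for Atp5g1, Cox7a2, Cox4i2 and Uqcrfs1; triangles are run 5, circles run 4, and the line marks equal levels. Atp5g1 and Cox7a2 points stretch along the line, Uqcrfs1 points do not, and Cox4i2 points at 1 on an axis are daughters without a count.

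The members varied together from cell to cell. The median Pearson r over 3081 pairs of members was 0.198, where the median over all pairs of the 11745 genes was 0.025; among genes of at least 100 CPM it was 0.265 for 36 members and 0.039 for 2564 genes. Cells share library depth and cell cycle state, and these r values are descriptions over cells. With the cell cycle regressed out the median over members was 0.155. The score of the members had an r of 0.12 with the log2 total and 0.23 with the number of detected genes.

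Pooled over complexes, pairs within a complex (median r 0.175, 886 pairs, of which 630 in complex I) were not closer than pairs across complexes (0.207, 2195 pairs). The medians within complexes III and V lay above that across complexes, and pairs were not matched by level. Among the 20 closest pairs, 7 lay within a complex. The closest were Ndufb7 with Atp5g3 (0.60), Cox8a with Atp5g1 (0.59), Cox7a2 with Cox8a (0.59), Atp5f1 with Atp5g3 (0.58) and Uqcrq with Atp5b (0.58). Within complexes the median ran from 0.126 in complex IV to 0.300 in complex V, by way of 0.161 in complex II, 0.164 in complex I and 0.240 in complex III. Complex IV was split. Its members Cox6b2, Cox7a1, Cox7a2l and Cox4i2 had medians of -0.03 to 0.05 with the complex. Its other members had medians of 0.340 (Cox7c) to 0.458 (Cox8a) with it. Ndufa4 had a median r of 0.472 with complex IV members and 0.246 with complex I members, and its closest partners were Cox8a (0.56), Atp5k (0.54) and Cox7a2 (0.54). That difference of Ndufa4 was chosen after its values were seen; it was the highest with complex IV among complex I members, of which 30 of 36 had a higher median with complex IV than with complex I.

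Members differed in how far they followed the others. Atp5b (r = 0.73 with the score of the other members), Atp5g1 (0.71), Cox8a (0.69), Uqcrq (0.68) and Atp5g3 (0.68) followed most closely. Atp5g2 (0.14), Cox4i2 (0.13), Cox7a2l (0.09), Uqcrc2 (0.08), Ndufs4 (0.05), Atp5s (-0.04), Cox6b2 (-0.05) and Atp5l (-0.09) had little relation to the score. Uqcrc2, a core protein of complex III, Ndufs4, of the NADH-oxidising arm of complex I, and Cox7a2l stood at 189.1, 100.9 and 134.99 CPM, so these 3 are not low genes.

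**Figure D5:**
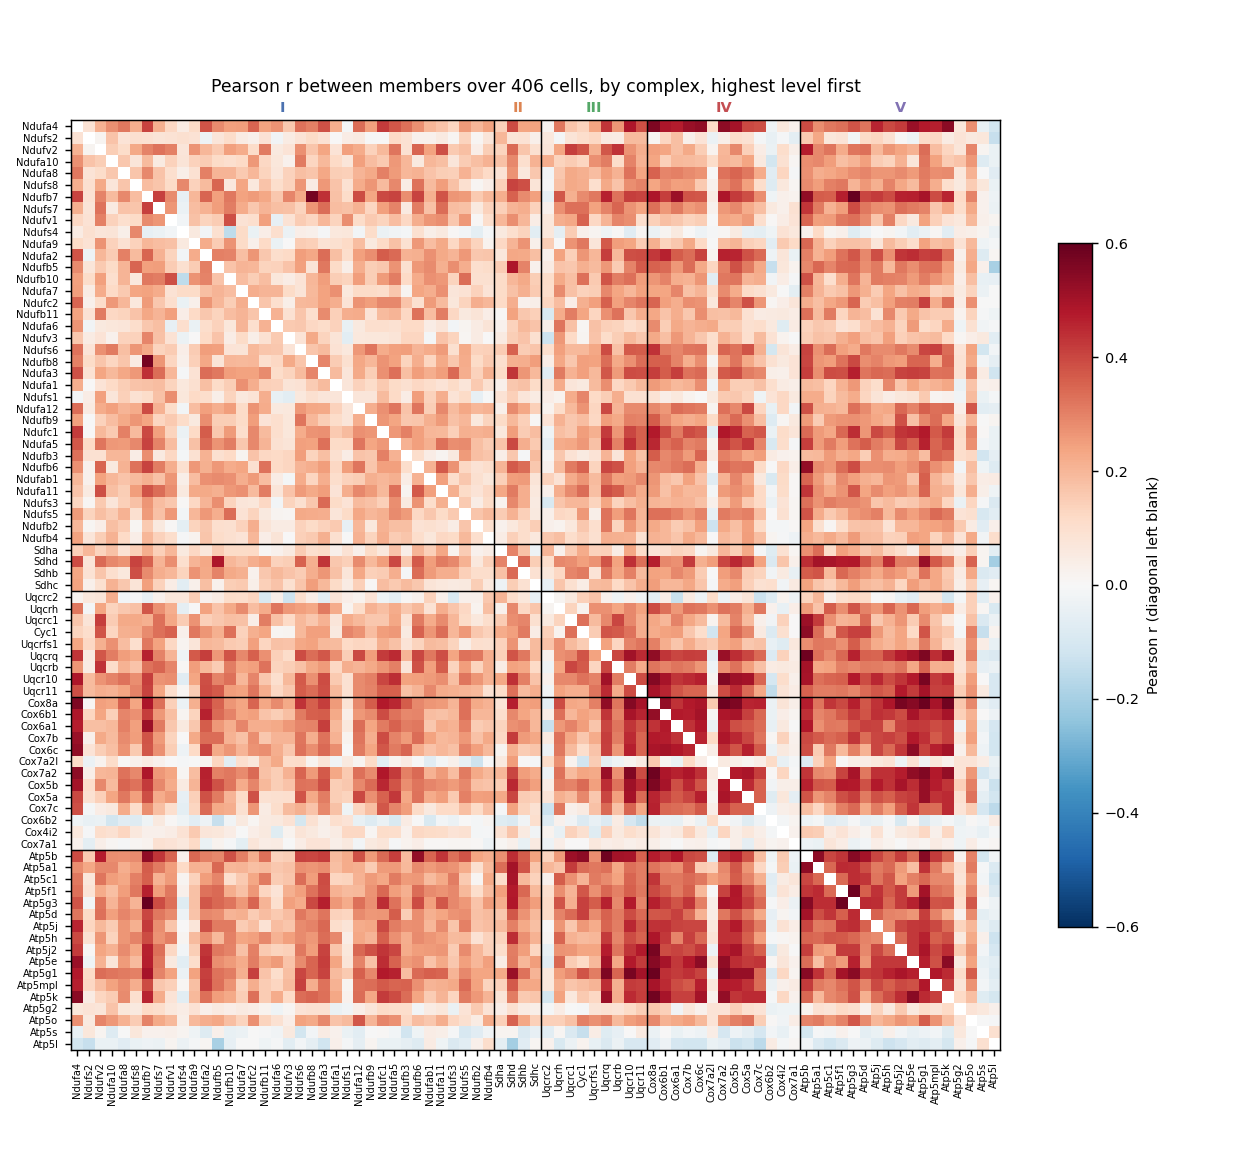
Pearson r between the 79 members over cells centred on experiment and plate, ordered by complex and by falling level; the colour scale runs from -0.6 to 0.6. Many of the closest values lie among complexes IV and V, Uqcrq, Uqcr10, Ndufa4 and Ndufb7, and the pale lines are members such as Ndufs4, Uqcrc2, Cox7a2l, Cox6b2 and Atp5l.

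Against other lists over the same cells, the score of the members had an r of 0.80 with the mitochondrial ribosome (0.65 to 0.95 by experiment) and 0.72 with protein import (0.56 to 0.87). It was 0.57 with assembly factors, 0.52 with the TCA cycle, 0.52 with the cytosolic ribosome, 0.47 with glycolysis, 0.42 with electron carriers and quinone synthesis and 0.17 with transcription regulators of mitochondrial genes. With the mitochondrially encoded subunits, their partners in the same complexes, it was 0.15, and -0.15 to 0.56 by experiment. The score of these subunits holds 8 of 13 such genes, the others having a count in fewer than 20% of cells.

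The third comparison sets sequencing run 5 against run 4; run, plates and cultures cannot be told apart in it. Sdhc had 67.05, 80.3, 73.2 and 80.4 CPM in the 4 experiments of run 5, against 103.4, 96.1, 109.4, 84.1 and 94.3 CPM in the 5 of run 4, a log2 difference of -0.35 ± 0.11 (SE, edgeR adjusted p = 0.447). Uqcrc2 had 146.8, 181.5, 167.3 and 178.2 CPM in run 5, against 201.8, 196.9, 208.8, 208.9 and 211.4 CPM in run 4, a difference of -0.27 ± 0.10 (0.447). The groups did not overlap in either gene. Ndufv1 averaged 107.8 ± 12.4 CPM in run 5 and 140 ± 23.1 CPM in run 4 (SD), a difference of -0.36 ± 0.13 (0.447), with overlapping groups. No member passed, of 79, where 0 of 15269 genes did (0%), and 10 had an unadjusted p under 0.05, against 10.6% of all genes. With 1 experiment left out this count of members was 2 (without experiment 72), 4 (without 69 or 75), 5 (without 60), 21 (without 73) and 7 to 11 otherwise. The share of all genes at this p moved as well, from 6.886% without experiment 72 to 16.01% without experiment 73. It was 10.22% without 69, 7.988% without 75, 6.994% without 60 and 8.466% to 12.27% otherwise. DESeq2 called 96 genes and limma voom 0, again with no member.

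The members leaned to lower levels in run 5. Of 79, 65 stood below 0 and 14 above (8 to 23 above with 1 experiment left out), against 49.4% of all genes below 0, with a median log2 difference of -0.10 for members and 0.005 for all genes. The lean was not particular to the members. Below 0 stood 64 of 71 mitochondrial ribosomal protein genes (median -0.14), 61 of 79 cytosolic ribosomal protein genes (-0.08) and 42 of 54 G2/M genes (-0.21). So did 13 of 16 TCA cycle genes (-0.16) and 13 of 16 glycolysis genes (-0.25). Protein import (9 of 16) and transcription regulators (6 of 14) were nearer an even split. Every experiment of run 5 lay below every experiment of run 4 in 4 members, Ndufa8, Sdhc, Uqcrc2 and Atp5o, where this held for 2.11% of all genes. Reads of Atp5o cannot be told from those of overlapping genes over 47.9% of its exons. The members' median share of a cell's counts was 0.893% to 1.09% in the experiments of run 5 and 0.997% to 1.19% in those of run 4, and spike-ins took 0.534% to 0.665% of counts in run 5 and 0.0179% to 0.0312% in run 4. The part of these technical differences in the shift was not tested.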

How the data were processed

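The deposited tables hold counts (raw reads per gene and cell, made by the authors), and per the submitters' processing notes featureCounts from Subread 1.5.0 and SAMtools were used. The aligner is not given in the sources used here, nor is the build. The deposited metadata hold the authors' labels of each cell, 242 high and 232 low daughters. Gene identifiers equal those of GENCODE M21 on GRCm38, which gave symbols, positions and lengths (APPRIS principal transcript), and all 55450 genes matched. A further 171 count columns of no listed sample were not used, and 92 spike-ins were left out of totals. The members and lists were chosen with earlier results of these data known.

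Counts were summed per experiment and label, or per experiment for runs, and tested with edgeR 4.0.16 in R 4.3.3 (TMM, filterByExpr, quasi-likelihood F test, Benjamini-Hochberg over all genes, threshold 0.05), with limma 3.58.1 and DESeq2 1.42.0 as alternatives. The experiment is the replicate, and high and low sisters share it, so it is the block. SEs are the log2 difference over the root of F. Sister resemblance used log2(CPM + 1) and an F test over 203 divisions (406 of 474 cells; 67 divisions in run 5, 136 in run 4), with statsmodels 0.14.6, scipy 1.17.1, pandas 2.3.3 and numpy 2.4.6 on Python 3.11.15; matplotlib 3.10.9 drew the figures. Neighbouring wells gave 154 unrelated pairs. Scripts were tested on simulated data with 200 genes changed by 1 on the log2 scale. At the adjusted threshold edgeR recovered 58.5% of them for lysosome inheritance and 49.5% for sequencing run, so a count of 0 genes can miss such changes. Binomial intervals and zero limits cover counting error only, since reads of 1 molecule were not merged by identifiers. Named were, by complex, the 3 highest members and the lowest per length, the 6 smallest p-values of inheritance, the 8 highest and 4 lowest intraclass correlations, up to 3 genes a list by p, core subunits and isoform families.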

Additional observations from a re-analysis of the deposited data

Results flagged for a closer look

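Of the 79 members, 6 had an experiment that stood apart from the other 8 (gap to the nearest over the whole range above Dixon's 95% critical value), and chance flags about 1 in 20 genes. All 6 were highest in experiment 75, which belongs to run 4 and holds 72 cells. The members varied together, so these flags are not independent, and the share of all genes flagged was not counted. Atp5j2 and Atp5j, subunits of ATP synthase, stood at 149.6 CPM and 238.5 CPM there, with medians over experiments of 121.3 and 190.3 CPM. Cox6b1 stood at 208.3 CPM (median 178.1), Ndufv1 at 180.2 CPM (120.8), Ndufc2 at 105.1 CPM (79.8) and Ndufa12 at 80.2 CPM (58.9). Experiment 75 also had the highest median share of counts on the members, 1.19%.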

How the results depend on the processing

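For lysosome inheritance, edgeR called 0 genes under the other normalizations, filters and runs tried and limma voom 0, while DESeq2 called 5 genes; no member was called under any of them. Culture experiment paired high with low daughters by design. With no replicate block, edgeR called 0 of 12899 genes, with 1.69% at an unadjusted p under 0.05. Leaving out each experiment in turn gave 0 to 0 genes and 0 to 0 members, and a score difference of 0.014 to 0.036. Signs turned for small differences: Ndufs1 stood at 0.0242 in run 4 alone and 0.0134 by limma on differences between sisters, Cyc1 at -0.0150 and Sdhc at 0.00144 in run 5 alone, and Sdha at 0.0367 by limma on differences between sisters. With experiments left out, Sdha ranged from -0.0596 to 0.00618, Sdhc from -0.0762 to 0.000606 and Uqcrfs1 from -0.0318 to 0.0477.

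For sister resemblance, 1641 genes passed with the cell cycle regressed out, and 1201 genes and 6 members in run 5 alone, which has fewer divisions; leaving out an experiment gave 2653 to 3167 genes and 29 to 37 members. Of the members followed by name through the alternatives, 11 lost their call in run 5 alone (Cox7b, Uqcrq, Cox4i2, Ndufb5, Sdhd, Ndufs1, Atp5g2, Cox6b1, Cox6b2, Cox6a1 and Ndufa4, at 0.098 to 0.307). Atp5g2 also lost it in run 4 alone (0.117), at a detection limit of 5% of cells (adjusted p = 0.051), in divisions of at least 300000 counts per daughter (0.134) and with the cell cycle regressed out (0.154), as did Sdhd (0.097), Cox6a1 (0.147) and Cox8a (0.173) in the last. Uqcr10 lost it in run 5 alone (0.309) and with the cell cycle regressed out (0.166). Cyc1 (0.181) and Ndufv1 (0.177) passed on log2(CPM + 10). For sequencing run, DESeq2 called 96 genes, and leaving out an experiment 0 to 1, the 1 without experiment 68. At this depth the inheritance intervals of Ndufb4, Cox4i2 and Cox7a1 reach past 1.5-fold. Exons shared with other genes make Ndufb6 (39% shared with Smim27) and Atp5o (47.9%) uncertain.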

Other observations

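Lists outside the respiratory chain differed widely in how alike sisters were. Of 77 cytosolic ribosomal protein genes 71 passed, with a median intraclass correlation of 0.295, led by Rpsa (0.460) and Rpl3 (0.442), and 69 passed with the cell cycle regressed out. Of 16 glycolysis genes 9 passed, led by Pkm (0.486), Gapdh (0.452) and Ldha (0.440), and 7 with the cell cycle regressed out. The cell cycle lists passed nearly whole, 53 of 54 G2/M genes (Plk1 at 0.834) and 43 of 44 G1/S genes (Rrm2 at 0.696), and 9 and 6 of them with their own scores regressed out. Of 71 mitochondrial ribosomal protein genes 18 passed, near the 26.4% of all genes, led by Mrpl30 (0.355). Their score (0.525) had the highest value of the mitochondrial lists, but scores of lists of different size are not comparable. No gene of these lists passed for lysosome inheritance, where 0% of all genes did. Of the cytosolic ribosomal protein genes, 9 of 79 tested stood above 0, with a median log2 difference of -0.03 (high minus low), against 49.8% and -0.0008 over all genes. Ppargc1a, a coactivator of mitochondrial genes, had the largest difference of the genes named by list, -1.68 ± 0.78 (SE, edgeR adjusted p = 0.999) at 4.10 CPM.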
